A study of Homo sapiens with 208 samples.

Results

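MHC class I antigen presentation genes were followed over 24 h in PC9, a lung adenocarcinoma line sensitive to gefitinib, and PC9M2, a resistant derivative. The 9 genes were HLA-B, HLA-C, HLA-E, HLA-F, B2M, TAP1, TAP2, TAPBP and ERAP1, chosen by name. A probe was taken when its RefSeq accession on the array belonged to one of these genes. This gave 17 of 41000 probes and 9 of 16961 genes with a named probe. All 9 were among the 13263 genes tested, for which the probe used was well above background, by the flag of the scanner software, on at least 13 of the 26 arrays of at least 1 time course. Of the 17 probes, 15 passed this filter on their own, and 1 probe each of TAP2 and ERAP1 did not. The probe used for TAPBP passed only through the courses with gefitinib, and that of ERAP1 passed only through PC9, so differences of these 2 probes along those lines are given beside brighter probes where there are any.

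PC9 is an established human line with an activating deletion in EGFR, the receptor that gefitinib inhibits. PC9M2 is 1 clone obtained by long exposure of PC9 to low gefitinib, and per the labels it carries no T790M change in EGFR and no amplified MET. Both lines were starved for 48 h and then followed at 26 time points (0, 0.5 and 1 h, then hourly to 24 h) under 4 treatments, each in its own course of 26 arrays. The courses were no treatment, 0.5 μM gefitinib, 100 ng/ml EGF, and EGF with gefitinib at the same doses. Gefitinib was already present at 0 h, before EGF was added. Each sample was hybridized to 1 one-colour array, so that time points stood in for replicates. They follow each other in 1 culture series, and p-values measure the spread over time points and not between cultures. Values are normalized log2 signals of 1 probe, and levels of different probes cannot be set against each other.

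MHC class I molecules show peptides from inside the cell to CD8 T cells. Each is made of a heavy chain, the light chain β2-microglobulin and a peptide. Peptides cut by the proteasome are carried into the endoplasmic reticulum by the TAP transporter, trimmed there by ERAP1 and loaded with the help of tapasin. Transcription of many of these genes is raised by interferon through NLRC5 and IRF1, and the heavy chain and B2M promoters carry a shared set of short elements. Loss of class I presentation is a known route by which tumours escape T cells.

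Promoters of 8 of the 9 genes were matched in RefSeq (GRCh38.p14), with 10 windows of 300 bases, most of each lying before a start site. The 4 short motifs below were searched on both strands and may overlap each other. They were the core of the interferon-stimulated response element (GAAANNGAA), a κB core (GGGANNNCC), the Y box core (ATTGG) and the cyclic AMP response element (TGACGTCA). The first was found in windows of 6 of the 8 genes, and in 8.11% of 35116 promoters of this length. The Y box core was found in 6 of the 8 genes (34.6% of promoters), the κB core in 4 (22.9%) and the cyclic AMP response element in 0 (1.85%). A match is a description of letters and not a site in use. The windows below are those of the heavy chains that matched, the light chain, and TAP2 and TAPBP, which moved in opposite directions with gefitinib. Capitals mark the motifs on either strand, and each sequence runs 5′ to 3′ on the gene's strand. HLA-B (chr6:31357130-31357429), HLA-C (chr6:31272043-31272342), TAP2 (chr6:32838690-32838989) and TAPBP (chr6:33314029-33314328) lie on the minus strand. HLA-F (chr6:29723184-29723483) and B2M (chr15:44711267-44711566) lie on the plus strand.
HLA-B: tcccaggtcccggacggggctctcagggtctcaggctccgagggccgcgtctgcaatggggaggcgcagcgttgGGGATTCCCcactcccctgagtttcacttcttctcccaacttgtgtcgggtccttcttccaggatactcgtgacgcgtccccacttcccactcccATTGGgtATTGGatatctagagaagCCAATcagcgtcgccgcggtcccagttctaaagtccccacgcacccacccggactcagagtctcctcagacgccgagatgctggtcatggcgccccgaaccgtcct
HLA-C: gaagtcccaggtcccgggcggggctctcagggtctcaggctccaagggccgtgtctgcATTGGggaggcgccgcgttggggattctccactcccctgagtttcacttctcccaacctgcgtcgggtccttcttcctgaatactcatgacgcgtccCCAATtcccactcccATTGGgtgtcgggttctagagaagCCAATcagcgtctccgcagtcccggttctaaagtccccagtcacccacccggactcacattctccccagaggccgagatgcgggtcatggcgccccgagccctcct
HLA-F: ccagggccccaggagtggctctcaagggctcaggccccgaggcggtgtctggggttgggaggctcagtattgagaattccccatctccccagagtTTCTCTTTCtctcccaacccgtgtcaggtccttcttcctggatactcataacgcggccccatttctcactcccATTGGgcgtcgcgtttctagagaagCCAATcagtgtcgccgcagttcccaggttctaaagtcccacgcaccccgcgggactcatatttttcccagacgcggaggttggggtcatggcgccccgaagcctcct
B2M: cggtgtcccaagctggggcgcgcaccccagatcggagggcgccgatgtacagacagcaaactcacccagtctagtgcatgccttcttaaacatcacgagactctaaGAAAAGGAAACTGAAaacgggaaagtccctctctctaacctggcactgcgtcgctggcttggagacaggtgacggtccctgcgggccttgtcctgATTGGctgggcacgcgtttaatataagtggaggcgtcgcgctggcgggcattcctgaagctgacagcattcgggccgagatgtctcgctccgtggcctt
TAP2: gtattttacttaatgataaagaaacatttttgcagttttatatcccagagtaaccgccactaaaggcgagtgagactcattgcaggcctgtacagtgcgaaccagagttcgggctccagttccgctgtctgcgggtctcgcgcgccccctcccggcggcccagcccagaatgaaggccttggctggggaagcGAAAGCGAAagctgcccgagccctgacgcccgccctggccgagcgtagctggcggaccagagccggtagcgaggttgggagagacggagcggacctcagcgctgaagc
TAPBP: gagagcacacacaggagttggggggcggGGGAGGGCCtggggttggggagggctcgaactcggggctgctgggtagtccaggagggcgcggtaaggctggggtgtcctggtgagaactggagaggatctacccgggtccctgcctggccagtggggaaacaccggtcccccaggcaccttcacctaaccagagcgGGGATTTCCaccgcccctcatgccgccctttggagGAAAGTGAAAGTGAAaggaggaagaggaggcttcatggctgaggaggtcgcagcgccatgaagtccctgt

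HLA-B, HLA-C and HLA-F shared Y box matches at nearly the same place, from -81 to -77, -80 to -76 and -82 to -78 relative to the start site. On the opposite strand they shared a match from -56 to -52 in HLA-B and HLA-C and from -57 to -53 in HLA-F. TAPBP held 2 overlapping matches to the interferon element between -20 and -6, and TAP2 held 1 match from -58 to -50 with none of the other 3 motifs. B2M held 2 overlapping matches from -144 to -130.

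The arrays were examined before the comparisons. The number of features well above background ranged from 24464 to 35938 per array. On PC9 arrays 183 to 1616 features were saturated (median 704.5), and on PC9M2 arrays 0 were. Each of 52 slides carried 1 line at 1 time point under its 4 treatments. Slides shared by the lines numbered 0, as did shared scan days, and line and scanning period cannot be told apart. The HLA-C probe was saturated on 15 PC9 arrays (4, 3, 5 and 3 under no treatment, gefitinib, EGF and both) and the B2M probe on 1. Of 8 epithelial markers, 7 were well above background on at least 52 arrays of each line, and NKX2-1 was above it on 9 and 4 arrays. The leukocyte marker PTPRC was above it on 1 PC9 array and 0 PC9M2 arrays, although CD14 and CD68 were above it on all arrays, LYZ was above it on 12 PC9 arrays and 100 PC9M2 arrays, and 0 of 4 fibroblast markers reached 52 arrays in either line. The part of these markers in the results was not tested.

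Some arrays stood apart. The library labelled PC9M2, no treatment, 11 h had the lowest median correlation with its own course (0.926, against 0.972 over all arrays). HLA-E there was 11.25, against 13.52 at 10 h and 13.76 at 12 h, and HLA-F was 8.66, against 11.13 and 11.68. The 2 PC9M2 libraries labelled EGF and EGF with gefitinib at 0.5 h went against their labels. The gefitinib profile of this pair correlated at -0.39 with the mean of the other time points, where the median was 0.86 and the next lowest 0.24. DUSP6, a target of EGFR signaling chosen after its values were seen, was 7.75 in the library labelled EGF, against 12.00 to 13.89 at the other 25 time points, and 12.54 in the library labelled EGF and gefitinib, against 7.51 to 11.53. All libraries were kept under their labels. Results whose call changed without these 3 are given both ways, as are some of those whose size changed.

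Gefitinib raised 6 of the 9 genes in PC9 and lowered 1. Among all 13263 genes, 72.3% passed the test (35.1% higher, 37.2% lower). The median difference of the 9 genes was 0.27 on the log2 scale, against -0.02 over all genes. In PC9M2, 7 of the 9 were higher and 1 was lower, where 66.7% of all genes passed (32.6% higher, 34.2% lower), with medians of 0.24 and -0.01. In the presence of EGF, 5 were higher and 2 lower in PC9 (78.9% of all genes, 39.0% higher and 39.9% lower), and 7 were higher and 1 lower in PC9M2 (74.5%, 36.7% and 37.8%). These counts of higher members include the dim TAPBP probe, which had to be brighter under gefitinib to be tested, and the TAPBP result is given below by its brighter probes. By the probes used, a difference of at least 2-fold was called for TAP2 in PC9 with EGF and for 0 members in PC9M2. In PC9 without EGF the 1 member past that size was TAPBP by its dim probe, while its brightest probe rose by 0.83. Brighter TAPBP probes also passed that size in PC9. The probe of mean level 7.00 averaged 6.64 untreated and 7.70 under gefitinib, and that of level 6.91 averaged 6.84 and 7.46. With EGF the brightest probe averaged 12.16 without gefitinib and 13.22 with it. The share of all genes past that size was 18.6% in PC9 (21.6% with EGF) and 9.73% in PC9M2 (13.7% with EGF). With most genes of the array called in either direction, the count of called members is near this background, and the sizes and directions below are the description. The comparisons with untreated arrays share those arrays. With only time points 3 h apart, 2 members were called in PC9, TAP2 and the dim TAPBP probe. The calls lost there were those of the heavy chains HLA-B (0.16, adjusted p = 0.364), HLA-C (0.21, adjusted p = 0.224), HLA-E (0.34, adjusted p = 0.0761) and HLA-F (0.33, adjusted p = 0.0667), and of B2M (0.22, adjusted p = 0.138). Without the 11 h library 7 members were called for gefitinib in PC9M2, and without the 0.5 h pair 8 were called for gefitinib with EGF there. Unless stated otherwise, tests are limma's moderated test of the 26 matched differences, two-sided, with Benjamini-Hochberg adjustment over all tested genes.

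The classical heavy chain HLA-B, which presents peptides to CD8 T cells, ranged in untreated PC9 from 11.36 to 12.77 with a median of 12.22, and under gefitinib from 11.94 to 12.98 with a median of 12.55. In PC9M2 it ranged from 10.57 to 12.39 (median 11.94) untreated and from 11.63 to 12.88 (median 12.43) under gefitinib. The ranges overlapped in both lines, and the drug courses lay higher at most time points. HLA-B rose by 0.36 ± 0.09 (SE, n = 26 time points) in PC9, higher at 23 of 26, with an adjusted p of 0.00042. In PC9M2 it rose by 0.53 ± 0.08, higher at 25 of 26 (adjusted p = 1.7e-06), and by 0.47 without the 11 h library. The second, brighter HLA-B probe rose by 0.32 ± 0.07 and 0.46 ± 0.10. In the presence of EGF the rises were 0.34 ± 0.06 in PC9 and 0.60 ± 0.06 in PC9M2.

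**Figure D1:**
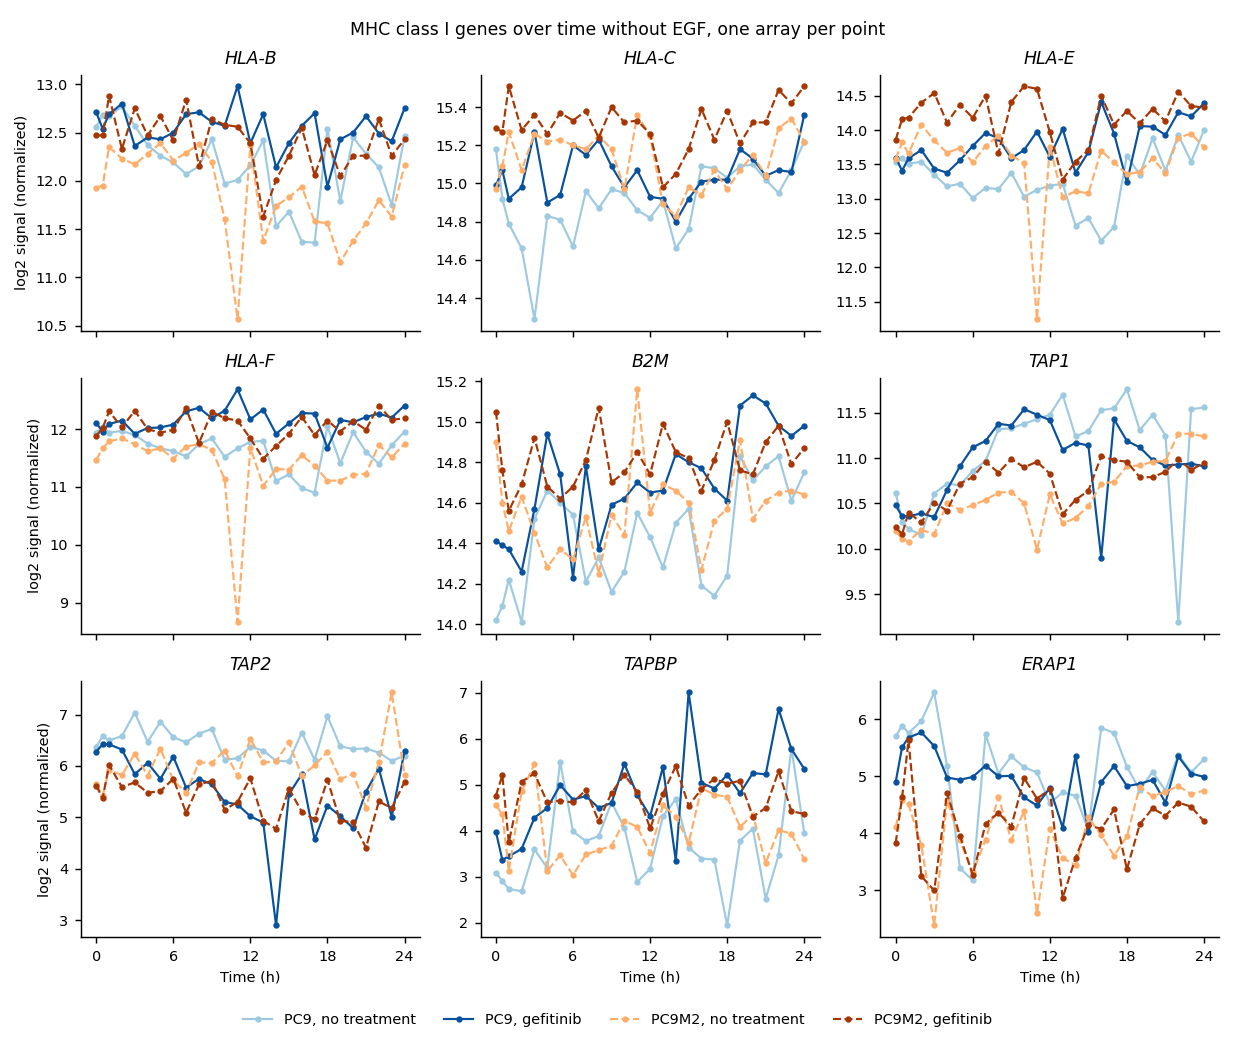
Normalized log2 signal of the 9 genes against time in h, without EGF, with 1 point per array (blue solid lines, PC9; orange and brown dashed lines, PC9M2; light shades, no treatment; dark shades, gefitinib). HLA-E and HLA-F of the untreated PC9M2 course drop to 11.25 and 8.66 at 11 h, and TAP1 lies between 10.20 and 10.62 in all 4 courses at 0 h.

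HLA-C, the other classical heavy chain measured, changed least among the heavy chains by the probes used. Its untreated range was 14.29 to 15.22 in PC9 (median 14.94) and 14.83 to 15.36 in PC9M2 (median 15.16). Under gefitinib it was 14.80 to 15.36 (median 15.03) and 14.98 to 15.51 (median 15.32). The groups overlapped widely. The rise was 0.19 ± 0.03 in PC9M2 (adjusted p = 2.66e-05, 24 of 26 time points). In PC9 it was 0.14 ± 0.05 (adjusted p = 0.0173, 21 of 26). Without the saturated spots it was 0.10 with an adjusted p of 0.0801, and the call in PC9 was lost. Whether saturation or the smaller number of time points ended the call was not tested. With EGF present, HLA-C rose by 0.30 ± 0.04 in PC9M2 and differed by 0.12 ± 0.07 in PC9 (adjusted p = 0.116).

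The non-classical heavy chains HLA-E, a ligand of inhibitory receptors on natural killer cells, and HLA-F rose the most among the heavy chains by the probes used, in all 4 comparisons. HLA-E ranged from 12.39 to 14.00 (median 13.28) in untreated PC9 and from 13.24 to 14.41 (median 13.74) under gefitinib. In PC9M2 it ranged from 11.25 to 14.08 (median 13.64) and from 13.28 to 14.64 (median 14.23). The highest drug arrays lay above every untreated array in both lines, and the rest overlapped. The rise of HLA-E was 0.52 ± 0.10 in PC9, seen at 24 of 26 time points (adjusted p = 2.42e-05). In PC9M2 it was 0.66 ± 0.12, at 25 of 26 (adjusted p = 1.18e-05), and 0.55 without the 11 h library. Its other 2 probes differed by 0.34 ± 0.07 and 0.21 ± 0.10 in PC9, the second with an adjusted p of 0.0565, and rose by 0.55 ± 0.07 and 0.40 ± 0.09 in PC9M2.

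HLA-F ranged from 10.90 to 12.05 (median 11.73) untreated and from 11.68 to 12.69 (median 12.17) with gefitinib in PC9, and from 8.66 to 11.84 (median 11.53) and 11.49 to 12.41 (median 12.03) in PC9M2. The medians were about as far apart in both lines. The rise was 0.51 ± 0.08 in PC9 (24 of 26 time points, adjusted p = 2.78e-06) and 0.66 ± 0.12 in PC9M2 (26 of 26, adjusted p = 1.69e-05), or 0.55 in PC9M2 without the 11 h library. With EGF present, HLA-E rose by 0.56 ± 0.06 in PC9 and 0.87 ± 0.07 in PC9M2, and HLA-F by 0.50 ± 0.05 and 0.72 ± 0.06. Without the 0.5 h pair the PC9M2 rises were 0.91 for HLA-E and 0.76 for HLA-F. The class I heavy chains are close in sequence, and whether a probe of one bound RNA of another was not tested.

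B2M, the light chain that every class I heavy chain needs to reach the surface, was read by 10 spots per array. It ranged from 14.01 to 14.83 (median 14.46) in untreated PC9 and from 14.23 to 15.13 (median 14.69) under gefitinib, and from 14.25 to 15.16 (median 14.56) and 14.56 to 15.07 (median 14.80) in PC9M2. The drug courses lay above the untreated courses by less than the width of either range. The rise was 0.27 ± 0.05 in PC9 (25 of 26 time points, adjusted p = 8.11e-06) and 0.24 ± 0.05 in PC9M2 (24 of 26, adjusted p = 3.81e-05). With EGF it was 0.25 ± 0.03 and 0.37 ± 0.04.

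The 2 subunits of the peptide transporter did not move together. TAP1 ranged from 9.19 to 11.76 (median 11.30) in untreated PC9 and from 9.90 to 11.54 (median 11.03) under gefitinib. In PC9M2 it ranged from 9.99 to 11.27 (median 10.52) untreated and from 10.16 to 11.02 (median 10.81) under gefitinib. The order of the medians was thus opposite in the 2 lines. The difference was -0.11 ± 0.11 in PC9 (adjusted p = 0.376). The untreated PC9 array at 22 h was 9.19, against 11.25 at 21 h and 11.54 at 23 h. The PC9 gefitinib array at 16 h was 9.90, against 11.14 at 15 h and 11.43 at 17 h. Both arrays were kept, and no PC9 difference without them is given. In PC9M2 TAP1 was called higher by 0.14 ± 0.06 (19 of 26 time points, adjusted p = 0.0372), and the call was lost without the 11 h library (0.11, adjusted p = 0.0582). With EGF present, TAP1 rose by 0.22 ± 0.05 in PC9M2 (adjusted p = 0.000319) and differed by 0.04 ± 0.05 in PC9 (adjusted p = 0.458).

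TAP2, the partner of TAP1, fell in all 4 comparisons. Its probe was far dimmer, with untreated ranges of 6.09 to 7.04 (median 6.38) in PC9 and 5.19 to 7.43 (median 5.97) in PC9M2. Under gefitinib the ranges were 2.90 to 6.42 (median 5.61) and 4.41 to 6.02 (median 5.42). The drug courses went below the lowest untreated value in both lines. TAP2 fell by 0.92 ± 0.13 in PC9 (lower at 25 of 26 time points, adjusted p = 4.28e-07) and by 0.65 ± 0.10 in PC9M2 (24 of 26, adjusted p = 1.26e-06). With EGF present it fell by 1.07 ± 0.10 in PC9, lower at 26 of 26, and by 0.73 ± 0.08 in PC9M2. The probe was well above background on all 26 arrays of each course without gefitinib and on 24, 24, 22 and 25 arrays of the courses with it. The second TAP2 probe was well above background on 10 arrays of the whole series and gives no second reading.

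TAPBP, which encodes tapasin, the protein that bridges TAP and the empty class I molecule, had 4 probes. The one with the largest variance was dim and was well above background on 8 of 26 arrays of each course without gefitinib and on 18 to 23 with it. Its gefitinib differences were 1.16 in PC9 and 0.73 in PC9M2, which are not exact folds and are given as a description. The brightest probe ranged from 11.95 to 12.82 (median 12.40) in untreated PC9 and from 12.57 to 13.99 (median 13.25) under gefitinib. In PC9M2 it ranged from 11.04 to 12.35 (median 11.90) untreated and from 11.51 to 12.79 (median 12.41) under gefitinib. In PC9 the ranges shared only the stretch from 12.57 to 12.82, and in PC9M2 they overlapped more widely.

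In a fit of all 29926 tested probes, where 68.0% passed in PC9 and 63.7% in PC9M2, the brightest TAPBP probe rose by 0.83 ± 0.09 in PC9 (25 of 26 time points, adjusted p = 6.41e-09) and by 0.51 ± 0.06 in PC9M2 (25 of 26, adjusted p = 1.89e-08). The remaining 2 probes rose by 1.05 ± 0.12 and 0.63 ± 0.11 in PC9 and by 0.62 ± 0.08 and 0.37 ± 0.08 in PC9M2. With EGF present the brightest probe rose by 1.06 ± 0.10 and 0.75 ± 0.06. TAPBP was thus higher under gefitinib by these 3 probes in both lines.

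ERAP1, the aminopeptidase that trims peptides to length, was dim. It ranged from 3.18 to 6.47 (median 5.17) in untreated PC9 and from 4.03 to 5.77 (median 4.99) under gefitinib, and from 2.39 to 4.83 (median 4.10) and 2.87 to 5.63 (median 4.19) in PC9M2. In each line the ranges overlapped over most of their width. The gefitinib difference of ERAP1 was -0.13 ± 0.12 in PC9, with an adjusted p of 0.344. The one in PC9M2 was 0.07 ± 0.12, with an adjusted p of 0.602. With EGF, ERAP1 fell by 0.18 ± 0.05 in PC9 (22 of 26 time points, adjusted p = 0.00265), and in PC9M2 the difference was -0.14 ± 0.15 (adjusted p = 0.388).

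**Figure D2:**
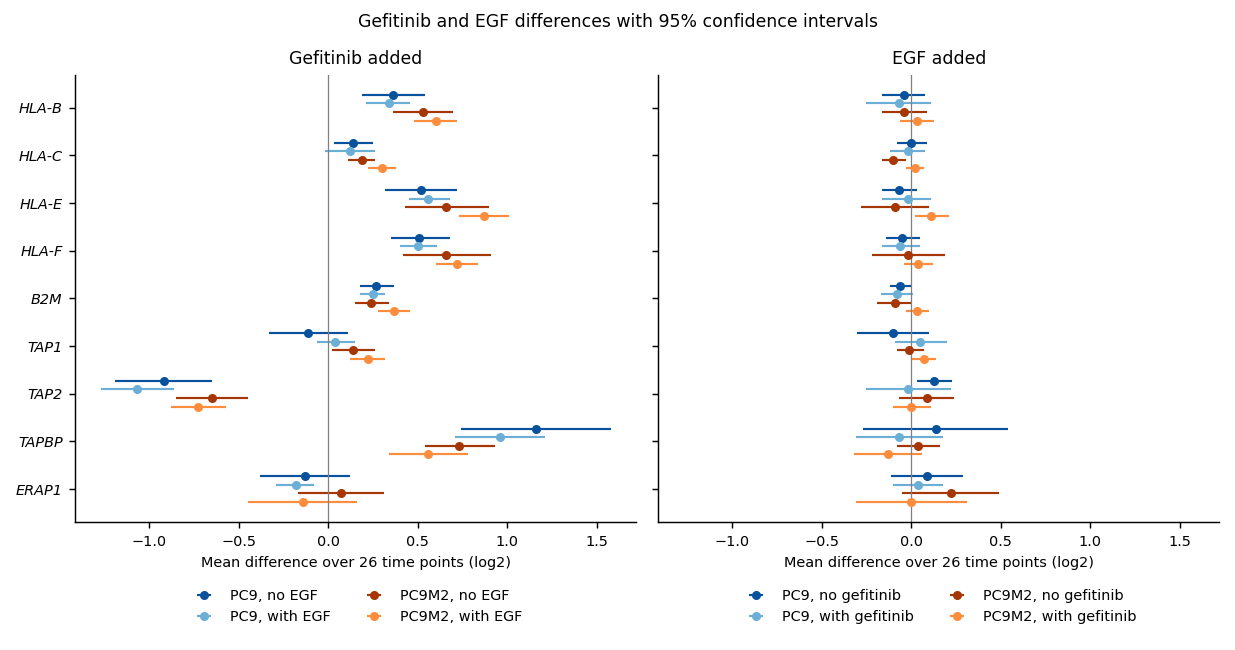
Mean log2 difference over 26 time points, with its 95% confidence interval, when gefitinib (left) or EGF (right) was added, for each gene's probe of largest variance, in PC9 (blue shades) and PC9M2 (brown and orange). HLA-B, HLA-E, HLA-F, B2M and TAPBP lie to the right of 0 and TAP2 to the left in all 4 gefitinib comparisons, while the EGF differences lie between -0.13 and 0.22.

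In 4 windows of the course, the gefitinib difference of the heavy chains in PC9 was small at first. The mean from 0 to 5 h was 0.01 ± 0.14 (SD over 7 time points) for HLA-B, 0.11 ± 0.16 for HLA-E and 0.15 ± 0.15 for HLA-F. From 12 to 17 h it was 0.72 ± 0.47 (6 time points), 1.06 ± 0.56 and 0.88 ± 0.39, and from 18 to 24 h it was 0.25 ± 0.43, 0.34 ± 0.38 and 0.42 ± 0.42. The lowest untreated arrays of these genes were those of 16 and 17 h, within the window of the widest difference. In PC9M2 the same genes already differed by 0.39 ± 0.20, 0.46 ± 0.16 and 0.39 ± 0.14 from 0 to 5 h. With EGF present, HLA-E in PC9M2 went from 0.56 ± 0.38 in the first window to 1.13 ± 0.23 in the last.

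TAP2 in PC9 went from -0.47 ± 0.48 in the first window to -1.49 ± 0.91 in the third, and with EGF from -0.40 ± 0.25 to -1.50 ± 0.37. The third window without EGF holds the gefitinib array of 2.90 at 14 h, against 4.90 at 13 h and 5.45 at 15 h. No mean without that array is given. At 24 h TAP2 in PC9 was 6.20 untreated and 6.29 under gefitinib, and with EGF 6.34 and 4.76. As a straight line over time, the gefitinib difference without EGF had a slope that passed the test for 0 of 9 genes in PC9, where 52.2% of all genes passed. In PC9M2 it passed for TAP1 (-0.0186 ± 0.00703 log2 per h, adjusted p = 0.0352) and TAP2 (-0.0395 ± 0.0109, adjusted p = 0.00443), where 41.1% passed. Without the 11 h library HLA-F also passed, with a slope of 0.0161 per h (adjusted p = 0.0399). In PC9 the slope of TAP1 was -0.0163 ± 0.0141 (adjusted p = 0.351). This slope includes the low untreated array at 22 h, and none without that array is given.

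**Figure D3:**
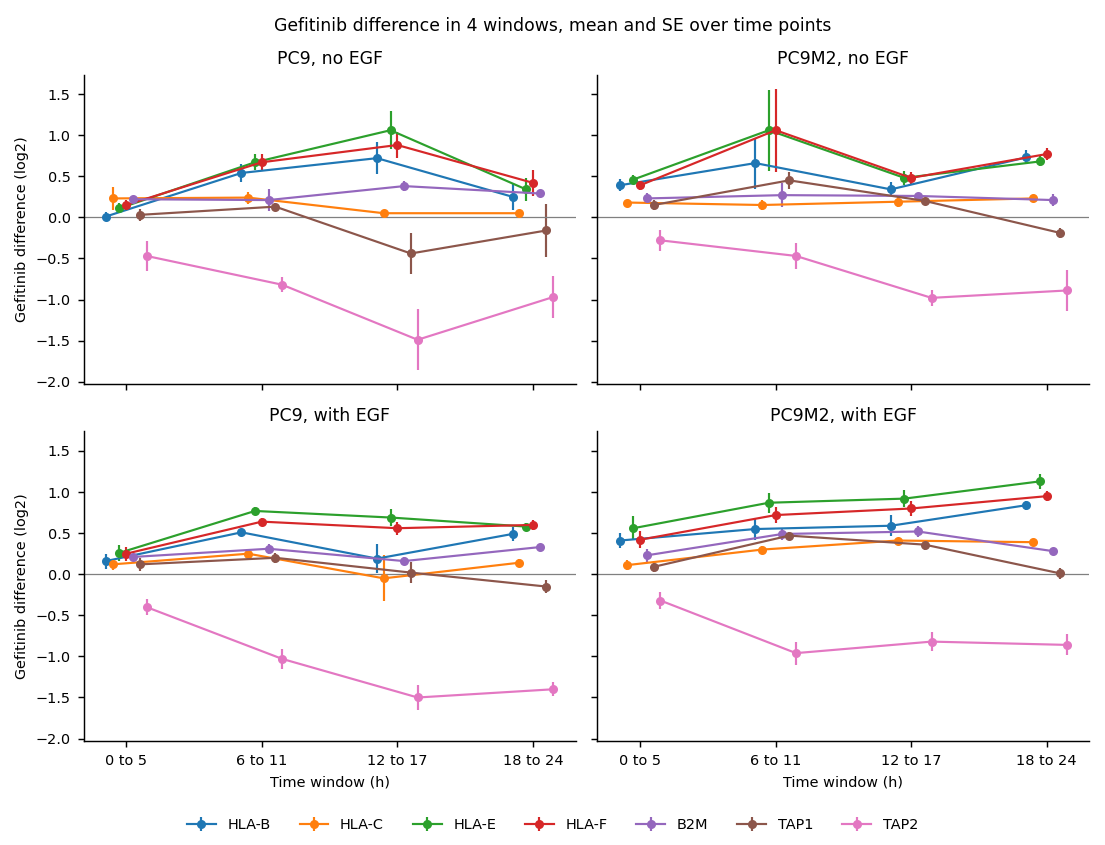
Mean gefitinib difference (log2) in 4 windows of time, with its SE over the 6 or 7 time points of each, for the 7 genes whose used probe was not dim, in PC9 (left) and PC9M2 (right), without EGF (top) and with it (bottom). TAP2 lies below 0 in every window, and the wide bars of HLA-E and HLA-F in PC9M2 from 6 to 11 h hold the 11 h library.

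Whether gefitinib acted on the genes to a different extent in the 2 lines was tested on the difference of the differences. By the probes used, 0 of 9 genes passed, where 34.0% of all genes did (17.0% higher, 16.9% lower, 3.54% at least 2-fold), and 2 of the 9 had an unadjusted p under 0.05. The difference was 0.28 ± 0.11 for TAP2 (adjusted p = 0.0543), which fell less in PC9M2, and 0.25 ± 0.12 for TAP1 (adjusted p = 0.11). Both passed when outlying points were replaced by a spline, TAP1 with 0.25 ± 0.07 (adjusted p = 0.00416) and TAP2 with 0.25 ± 0.08 (adjusted p = 0.00776). For the heavy chains and B2M it lay between -0.03 and 0.17, with 95% intervals from -0.17 to 0.10 for B2M and from -0.14 to 0.43 for HLA-E. Without the 11 h library it was 0.13 for HLA-B, 0.05 for HLA-E and 0.06 for HLA-F. For TAPBP the brightest probe rose by less in PC9M2, with a difference of -0.32 ± 0.10 (lower at 16 of 26 time points, adjusted p = 0.0153), and so did the probe of mean level 7.00 (-0.44 ± 0.13, 19 of 26, adjusted p = 0.0126). In this fit of every probe 30.0% passed. The other 2 TAPBP probes differed by -0.26 ± 0.13 and -0.43 ± 0.23 with adjusted p of 0.121 and 0.169.

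By the probes used, 0 of the 9 genes passed in each of the 4 comparisons of EGF with its control, where 25.6% of all genes passed in PC9 (11.3% higher, 14.3% lower) and 9.13% in PC9M2 (4.09% higher, 5.04% lower) without gefitinib, and 0.0452% and 3.21% with it (0.0452% and 1.07% higher, 0 and 2.14% lower). At least 2-fold differences with EGF were rare among all genes, with 0.158% in PC9 and 0.0302% in PC9M2 without gefitinib. An unadjusted p under 0.05 was found for 1, 1, 0 and 2 genes in that order. The plain paired t-test of the methods, with the same adjustment, called 1 gene in PC9M2 without gefitinib and 0 in the other comparisons. The mean differences lay between -0.13 and 0.22. Those closest to the threshold were HLA-C in PC9M2 (-0.10 ± 0.03, lower at 22 of 26, adjusted p = 0.0549) and TAP2 in PC9 (0.13 ± 0.05, higher at 21 of 26, adjusted p = 0.0586).

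The EGF comparison in PC9M2 turned on the libraries that stood apart. Without the 11 h library, 3 genes passed: HLA-C (-0.08, adjusted p = 0.0492), HLA-E (-0.18, adjusted p = 0.00731) and HLA-F (-0.12, adjusted p = 0.0217). Without the 0.5 h pair, HLA-C alone passed (-0.11, adjusted p = 0.0267). The brightest TAPBP probe fell with EGF by 0.25 ± 0.05 in PC9 (22 of 26 time points, adjusted p = 0.000406) and by 0.17 ± 0.04 in PC9M2 (20 of 26, adjusted p = 0.00346), in the fit of every probe, where 22.1% and 7.05% passed. Under gefitinib its EGF differences were -0.02 ± 0.04 and 0.07 ± 0.04, with adjusted p of 0.885 and 0.386.

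Between the lines, TAP1 and the brightest TAPBP probe were lower in PC9M2 under all 4 treatments. The comparisons share their arrays with the treatment comparisons above. Without treatment 5 of 9 genes differed (6 without the 11 h library), 1 higher and 4 lower (68.1% of all genes passed, 31.1% higher and 37.0% lower). Under gefitinib 4 differed, 2 in each direction (64.9%, 30.7% higher and 34.3% lower). Under EGF 6 differed, 1 higher and 5 lower (69.8%, 32.8% and 37.0%). Under both agents 5 differed, 3 higher and 2 lower (67.7%, 31.5% and 36.2%). Each count of lower genes includes ERAP1, whose probe was tested only through its PC9 arrays. The 1 member past 2-fold without treatment was also ERAP1, well above background on 8 of 26 untreated PC9M2 arrays, so that its size is not an exact fold. Under the other treatments 0 members reached 2-fold, where 16.8, 16.5, 16.1 and 15.7% of all genes reached that size under no treatment, gefitinib, EGF and both. These counts lie near or below those shares.

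TAP1 was lower by 0.48 ± 0.12 untreated (24 of 26 time points, adjusted p = 0.00116), 0.23 ± 0.08 under gefitinib, 0.39 ± 0.07 under EGF and 0.21 ± 0.05 under both. With only time points 3 h apart, TAP1 kept its call in untreated cells alone (-0.57, adjusted p = 0.003). Its adjusted p there was 0.128 under gefitinib, 0.0584 under EGF and 0.109 under both. The ERAP1 probe was well above background on 8 to 10 of 26 arrays in PC9M2 courses and on 16 to 18 in PC9. Its measured differences, a description only, lay between -1.04 and -0.84, and the other ERAP1 probe was above background on 1 array of the series. TAP2 was lower by 0.43 ± 0.11 untreated and by 0.47 ± 0.09 under EGF. With gefitinib its differences were -0.16 ± 0.12 and -0.14 ± 0.11 and did not pass. The brightest TAPBP probe was lower in PC9M2 by 0.62 ± 0.08, 0.94 ± 0.09, 0.54 ± 0.08 and 0.85 ± 0.08 under no treatment, gefitinib, EGF and both, at 25, 26, 25 and 26 of 26 time points. The probe of level 6.91 was lower, with differences of -0.31 untreated and -0.21 under EGF. That of level 7.00 averaged 6.64 in PC9 and 6.54 in PC9M2 untreated, and 6.56 and 6.52 under EGF. The dim TAPBP probe used differed by 0.37 and 0.27 in those courses and did not pass. The sign of TAPBP without gefitinib thus depended on the probe.

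HLA-C was higher in PC9M2 by 0.22 ± 0.06 untreated, 0.26 ± 0.04 under gefitinib (26 of 26 time points, adjusted p = 8.07e-06) and 0.30 ± 0.06 under both, while under EGF the difference was 0.12 ± 0.06 (adjusted p = 0.0674). The probe was saturated on 15 PC9 arrays and 0 PC9M2 arrays, and without those spots the differences of HLA-C were 0.17 untreated (adjusted p = 0.0222), 0.25 under gefitinib, 0.08 under EGF and 0.28 under both. With only time points 3 h apart, HLA-C kept its call under both agents alone (0.31, adjusted p = 0.0454). Its adjusted p there was 0.208 untreated and 0.0695 under gefitinib. B2M was higher under both agents (0.23 ± 0.07, adjusted p = 0.00425). HLA-F was lower under EGF (-0.24 ± 0.06, adjusted p = 0.000601).

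For HLA-B and HLA-E the direction between lines also depended on the probe. The HLA-B probe used was lower in PC9M2 by 0.31 ± 0.10 untreated and 0.30 ± 0.08 under EGF, while the brighter probe differed by 0.10 ± 0.10 and 0.11 ± 0.08 and was higher by 0.24 ± 0.08 under gefitinib and 0.31 ± 0.07 under both. The HLA-E probe used was higher by 0.38 ± 0.09 under gefitinib, 0.22 ± 0.08 under EGF and 0.52 ± 0.07 under both. Its other probes were lower by 0.28 ± 0.10 and 0.17 ± 0.07 untreated and differed by -0.09 ± 0.10 and 0.04 ± 0.07 under gefitinib. Without the 11 h library the HLA-E probe used was also higher in untreated PC9M2 (0.33, adjusted p = 0.00095). For both genes the sign between the lines thus depended on which probe was read. 

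The line differences rest on arrays of separate scan days, and fitting the scan day as a random block ended several calls. Without treatment HLA-B no longer passed (-0.27, adjusted p = 0.256). Under gefitinib HLA-E (0.36, adjusted p = 0.0719) and TAP1 (-0.26, adjusted p = 0.193) did not, and under EGF HLA-B, HLA-E and HLA-F did not (adjusted p = 0.186, 0.206 and 0.138). Under both agents B2M (0.21, adjusted p = 0.118), TAP1 (-0.27, adjusted p = 0.136) and ERAP1 (-0.82, adjusted p = 0.0936) did not. The other calls held in that fit, among them TAP1 and TAP2 in untreated cells and under EGF, and HLA-C in the 3 treatments where it was called.

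**Figure D4:**
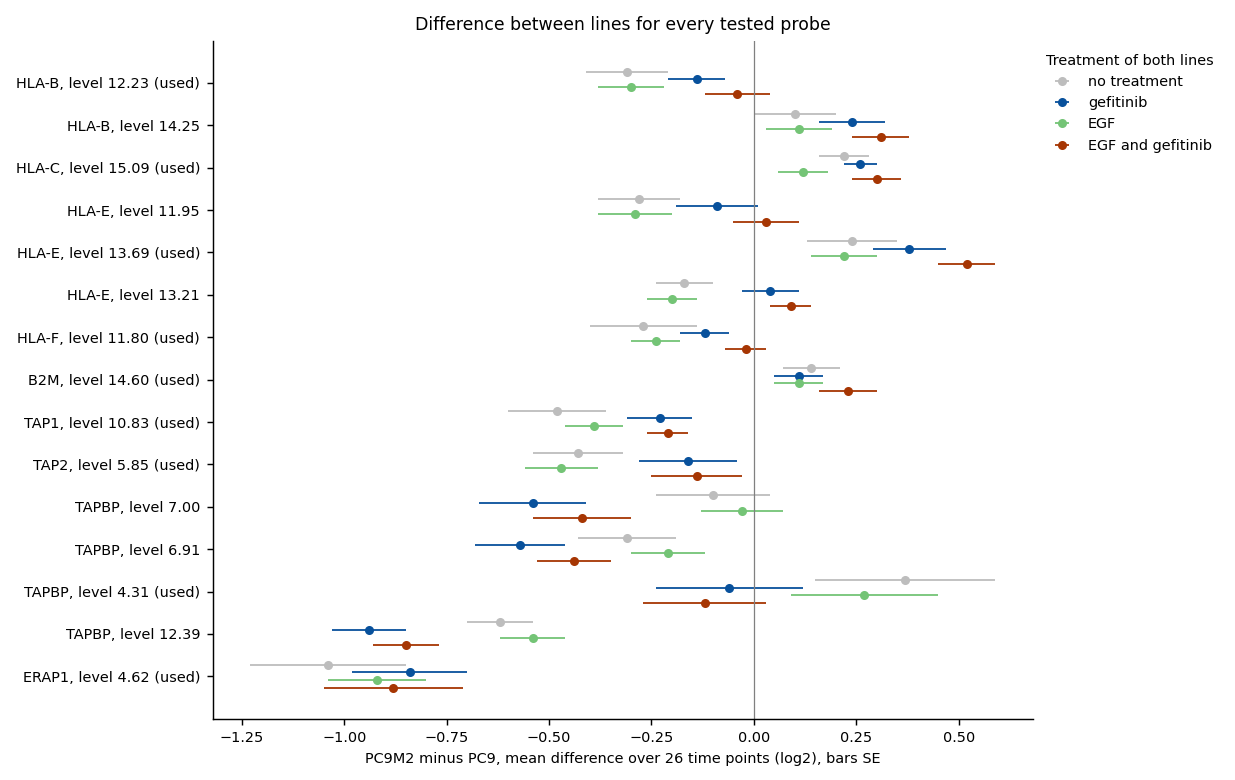
PC9M2 minus PC9, mean log2 difference over 26 time points with its SE, for the 15 probes tested, named by gene and mean level, under the 4 treatments. The brightest TAPBP probe and the ERAP1 probe lie to the left of 0 under all 4 treatments, and the probes of HLA-B and of HLA-E lie on opposite sides of 0 without treatment.

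Over the 24 h of each course, a spline of time with 4 degrees of freedom passed for 6, 6, 7 and 8 of the 9 genes in PC9 under no treatment, gefitinib, EGF and both, and for 2, 1, 6 and 2 in PC9M2. Of all genes, 66.3, 77.8, 78.9 and 83.2% passed in PC9 and 67.2, 63.7, 74.9 and 67.7% in PC9M2. Without the 11 h library, 6 genes passed in the untreated PC9M2 course. Each time point of a line had its own slide, shared by the 4 treatments. Time and slide thus cannot be told apart, and the courses of a line are not independent. With scan day as a random block, 4, 3, 5 and 4 genes passed in PC9 and 1, 1, 3 and 2 in PC9M2. In the fit without this block, TAP1 passed in all 8 courses and its fitted curve was lowest at 0 h in each, with ranges from 0.82 to 1.31. In untreated PC9M2 the TAP1 array went from 10.20 at 0 h to 11.24 at 24 h. In untreated PC9, the fitted curve of HLA-E was lowest at 15 h and highest at 24 h, with a range of 1.14 (adjusted p = 0.00187), and the fitted curve of HLA-B was highest at 0 h and lowest at 16 h, with a range of 0.87 (adjusted p = 0.0107).

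Over all arrays of a line, which share treatments and times, HLA-E and HLA-F correlated at r = 0.84 in PC9 and 0.95 in PC9M2, and HLA-B and HLA-F at 0.85 and 0.88. The PC9M2 values include the 11 h library, where HLA-B, HLA-E and HLA-F were all low, and no value without it is given. B2M and TAP2 ran opposite to each other (-0.50 and -0.57). The 5 genes outside the set whose signal was most like the mean of the standardized signals of the 9 were SUGP1, METTL25B, ATG9A, CDK3 and CTSA, with the smaller r of the 2 lines between 0.77 and 0.791. All are descriptions over arrays and have no test.

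The rest of the pathway was read from lists, whose counts are read against the percentages of all genes given above. Of the immunoproteasome subunits and its activator, which make the peptides, 2 of 6 rose with gefitinib in PC9 and 2 fell, and in PC9M2 1 rose and 2 fell. PSMB8 rose by 0.51 ± 0.08 and 0.47 ± 0.07, PSMB9 rose by 0.22 ± 0.07 in PC9 and differed by 0.11 ± 0.07 in PC9M2 (adjusted p = 0.184), and PSMB10 differed by 0.02 ± 0.06 and 0.09 ± 0.08. All 6 were lower in PC9M2 under each treatment, with a median of -0.64 untreated against -0.05 over all genes. PSMB8 was lower by 0.50 ± 0.09, PSMB9 by 1.04 ± 0.12 and PSMB10 by 1.35 ± 0.16.

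Of 7 genes of folding and peptide editing in the endoplasmic reticulum, 3 rose and 2 fell in PC9, and 4 rose and 1 fell in PC9M2. The chaperones CALR (0.28 ± 0.04 and 0.29 ± 0.09) and CANX (0.20 ± 0.06 and 0.20 ± 0.08) and the tapasin relative TAPBPL (0.62 ± 0.11 and 0.43 ± 0.10) rose in both lines, and the trimming enzyme ERAP2 fell (by 0.39 ± 0.12 and 0.47 ± 0.08). PDIA3 rose in PC9M2 (0.21 ± 0.06) and differed by 0.11 ± 0.05 in PC9 (adjusted p = 0.0612). TAPBPL was lower in untreated PC9M2 by 2.42 ± 0.09 and ERAP2 by 1.25 ± 0.16. ERAP2 was well above background on 23 untreated arrays of PC9 and 13 of PC9M2, and on 19 and 8 under gefitinib. Its sizes of change are thus not exact folds.

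Of 9 measured regulators of class I transcription, 2 rose and 3 fell with gefitinib in PC9, and 3 rose and 2 fell in PC9M2. RFX5, a subunit of the complex that binds class I promoters, rose by 0.25 ± 0.07 and 0.21 ± 0.06. The counts include NLRC5, the transactivator of class I genes, whose signal stood well above background on 8 and 9 untreated arrays of PC9 and PC9M2 and on 24 under gefitinib in each line, so that its size of change is not given. IRF1 rose in PC9M2 (0.68 ± 0.10) and differed by 0.13 ± 0.12 in PC9 (adjusted p = 0.334). The difference between the lines was 0.56 ± 0.14 (adjusted p = 0.00231), and untreated IRF1 was lower in PC9M2 by 1.79 ± 0.09. Of 9 genes of interferon signaling, 3 rose and 4 fell in PC9, and 4 rose and 2 fell in PC9M2. STAT2 (0.72 ± 0.09 and 0.80 ± 0.09) and IRF9 (0.87 ± 0.13 and 0.57 ± 0.05) rose in both lines. IFNGR1 rose in PC9M2 (0.43 ± 0.08) and differed by -0.06 ± 0.06 in PC9, with a difference between the lines of 0.49 ± 0.10 (adjusted p = 0.000222).

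Of the class I-like ligands, 6 of 9 were tested, of which 2 rose and 3 fell in each line. MICA and MICB, stress ligands of the natural killer receptor NKG2D, fell with gefitinib by 0.51 ± 0.12 and 0.83 ± 0.13 in PC9 and by 0.54 ± 0.07 and 1.24 ± 0.17 in PC9M2, opposite to the heavy chains. Both were lower in untreated PC9M2, by 1.43 ± 0.13 and 0.88 ± 0.13.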

How the data were processed

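RNA of each sample was hybridized to 1 of the one-colour Agilent whole-genome arrays of the series. Per the file headers the deposited intensity values are signals with local background subtracted and spatially detrended (Feature Extraction 10.5.1.1), and the flags mark spots well above background, saturated or outlying. The authors also deposited quantile-normalized intensity values, used here as an alternative (correlation of 1 with those computed here). From the scanner files, control spots and outlier spots were left out (0.0793% of tested values), intensities were quantile normalized over all arrays, floored at 1, converted to log2 and averaged over spots of a probe. Probes were named through RefSeq (24794 of 41000 matched). As in the methods of the study, the probe with the largest variance stood for each of 6040 genes with several probes, so 1 probe decides a gene's value. Groups followed the labels. Differences were taken at matched time points, which share a slide within a line, and tested with limma 3.58.1 in R 4.3.3 at an adjusted p of 0.05. The other fit dropped this pairing. The median lag-1 autocorrelation of the members' differences ranged from -0.10 to 0.39 over the comparisons, so time points are not independent. The pipeline was tested on simulated data with independent noise at each time point. The effect of autocorrelation on the calls was thus not tested there. Precision is limited by the number of arrays, and probe sequences were not used here. The named genes were all 9 members, starred genes of 6 lists (immunoproteasome, endoplasmic reticulum folding, class I transcription, interferon signaling, class I-like ligands and class II) and the 5 genes most alike. The members, lists and tests were chosen with earlier results of these data known. The values of 1 tested starred gene are not reported here, and 2 starred class II genes were not among the genes tested.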

Additional observations from a re-analysis of the deposited data

Results flagged for a closer look

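For 2 of the 4 TAPBP probes the gefitinib effect differed between the lines in a test of the difference itself. The probe of mean level 7.00 rose by 1.05 in PC9 and 0.62 in PC9M2, a difference of -0.44 (adjusted p = 0.0126 by limma over all tested probes, lower at 19 of 26 time points). The probe of mean level 12.39 rose by 0.83 and 0.51, a difference of -0.32 (adjusted p = 0.0153, lower at 16 of 26).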

How the results depend on the processing

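Over 29 alternatives, of which the array at 11 h, the 0.5 h pair and the single other probes were chosen after seeing the data, 215 counts of called members stayed within 1.5 times of the reported count and 55 did not. The cause was not tested. With the test unpaired (no replicate block), the called counts between the lines were 5, 4, 5 and 4 under no treatment, gefitinib, EGF and both, those for gefitinib were 7 in PC9 (6 with EGF) and 7 in PC9M2 (8 with EGF), and those for EGF and for the difference of gefitinib effects were 0. The pairing moved no count by over 1.5 times, and the calls lost without it were HLA-E between the lines under EGF, TAP1 between them under both, ERAP1 for gefitinib with EGF in PC9 and TAP1 for gefitinib in PC9M2.

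When a 2-fold difference was also required, the counts fell to 1 for gefitinib in PC9 with or without EGF, 0 for gefitinib in PC9M2 with or without EGF, and, between the lines, 1 untreated and 0 under each other treatment. With scan day as a random block the line counts were 2 under gefitinib, 3 under EGF and 2 under both, and the genes that changed over time numbered 3 (PC9, gefitinib), 4 (PC9, both), 1 (PC9M2 untreated) and 3 (PC9M2, EGF). With time points 3 h apart the line counts were 3, 2, 1 and 2, and gefitinib in PC9 gave 2. With the variance inflated for autocorrelation the counts moved by less than 1.5 times and 6 single calls were lost. These were HLA-C untreated, HLA-E under EGF and B2M under both between the lines, and for gefitinib HLA-C in PC9 and TAP1 in PC9M2 without and with EGF. One-sided tests for higher in PC9M2 gave line counts of 1, 2, 1 and 3, and the last 13 time points gave 1 untreated and 2 under gefitinib.

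For EGF, reported at 0, the count in PC9M2 became 2 with a floor of 16, with normexp background and with the probe of highest mean. It became 1 with the spline-replaced points, the mean of all probes and the methods' t-test, 1 without the 0.5 h pair, and 3 in the last 13 time points and without the 11 h array. In PC9 it became 1 with the floor of 16, normexp, the probe of highest mean and the first 13 time points, and 2 with spline-replaced points. Under gefitinib it became 1 in PC9M2 in the last 13 time points. The difference of gefitinib effects between the lines, also 0, became 1 with a filter on all 26 arrays, the floor of 16, scaling to the 75th percentile, normexp, the deposited table and the mean of all probes, and 2 with spline-replaced points and with the probe of highest mean.

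Genes changing over time numbered 4 in untreated PC9M2 with a spline of 3 degrees of freedom and 6 without the 11 h array, and 5 in PC9 under both agents with scaling to the 75th percentile. Slopes that passed numbered 2 in PC9 with that scaling, and 1 in each line without 0, 0.5 and 1 h.

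For single genes 25 values turned sign, 24 of them between the lines. TAPBP went to -0.62 untreated and -0.54 under EGF with the floor of 16, the probe of highest mean and the probe of level 12.39, to -0.55 and -0.49 with normexp, and to -0.31 and -0.21 with the probe of level 6.91. The probe of level 12.39 is also the one of highest mean, and the floor of 16 gave the same values. These are thus not separate readings. HLA-E went to -0.28, -0.09 and -0.29 (untreated, gefitinib, EGF) with the probe of level 11.95, to -0.17 and -0.20 (untreated, EGF) with that of 13.21, and to -0.09 under EGF with the mean of all probes. HLA-B went to 0.10, 0.24, 0.11 and 0.31 with its other probe, of level 14.25, which is also the one of highest mean. TAP1 under gefitinib in PC9M2 was -0.01 in the last 13 time points.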

Other observations

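MHC class II genes, which present peptides taken up from outside the cell and are driven by the transactivator CIITA, were read from a list of 8, of which 5 were tested. The genes named here were chosen after their values were seen. HLA-DMA, which helps to load class II molecules, and HLA-DRB1 were well above background on all 26 arrays of the untreated and gefitinib courses of both lines. With gefitinib HLA-DMA rose by 1.13 ± 0.10 (log2, SE, n = 26 time points) in PC9 and by 0.59 ± 0.10 in PC9M2, and the difference between the lines was -0.53 ± 0.13 (adjusted p = 0.00159 by limma). HLA-DRB1 rose by 0.27 ± 0.09 and 0.30 ± 0.09. CIITA was well above background on 5 and 0 untreated arrays of PC9 and PC9M2 and on 26 and 21 arrays under gefitinib, HLA-DMB on 3 and 1 and on 21 and 10, and HLA-DPA1 on 4 and 1 and on 13 and 7. These 3 were tested only through arrays with gefitinib, and no size of change is given for them.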
